A study of Arabidopsis thaliana with 6 samples.

Results

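Kinesins are motor proteins that move along microtubules or change their ends by using ATP. In dividing plant cells, different kinesins slide microtubules apart in the spindle, gather spindle poles, and build and guide the phragmoplast, the microtubule array that lays down the new cell wall. Other kinesins act between divisions, on cell wall deposition, organelle movement and the shaping of cortical microtubules. The list taken here held 56 Arabidopsis thaliana kinesin genes, chosen by locus, with measured values of AT3G44050 and AT2G28620 in this contrast already known. A gene counted as measured when the platform annotation gave it a probe set with no other gene, and the probe set with the highest mean log2 intensity over all arrays stood for it. This left 37 of the 56 kinesins, out of 13355 genes with such a probe set in the whole table. The probe sets were thus selected on mean intensity, and no level is compared between genes.

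The samples were sorted root cells of Col-0 seedlings, grown for 5 days on standard medium and protoplasted. There were 3 arrays of cells sorted for WOX5::GFP and 3 of cells sorted for pTMO5::GFP, and they are called WOX5 and TMO5 arrays after the reporter in their titles. WOX5 is a homeobox gene expressed in the quiescent centre, where stem cells of the root tip surround cells that seldom divide, and TMO5 is a gene for a transcription factor of young vascular and xylem cells. The sample descriptions place WOX5 with the quiescent centre and TMO5 with xylem, while the cell type tag swaps them. No untreated or unsorted group was among the samples, and whether replicates came from separate plantings is not stated, so p-values reflect array-to-array spread that may be technical.

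The deposited intensities had been scaled to the same trimmed mean on each array, near 250.0, while the array medians ran from 91.6 to 92.5 on WOX5 and from 68.1 to 74.6 on TMO5 arrays. WOX5 replicate 2 stood apart from the other WOX5 arrays, with an SD of the log2 difference of 0.60 and 0.59 against 0.34 between replicates 1 and 3. The reporters' own transcripts were not analysed here. Over all genes with a named probe set, 12.7% were higher in WOX5 cells and 9.43% lower. With quantile normalization 11.3% of all probe sets were higher and 12.6% lower. Of the niche markers with a named probe set, 6 of 6 were higher in WOX5 cells, and 4 of 6 with quantile normalization. Among them AGL42 stood at 271 ± 38.4 (SD, n = 3) against 21.2 ± 13.2, the latter within background, and the list's summed intensity was 2584 to 4455 on WOX5 and 1113 to 1235 on TMO5 arrays. Of 2 xylem and vascular markers, PHV was lower in WOX5 cells, at 248 ± 33.6 against 517 ± 91.1, and LHW did not pass the test, at 749 ± 175 against 700.1 ± 108, with sums over both of 873 to 1213 on WOX5 and 1206 to 1238 on TMO5 arrays. Among markers of other root cells, 3 of 5 from root hairs passed as lower in WOX5 cells, with a summed intensity of 219 to 297 on WOX5 and 547 to 996 on TMO5 arrays. In the ground tissue list 1 of 3 genes was higher in WOX5 cells, CO2 at 419 ± 148 against 33.0 ± 7.98, with list sums of 308 to 624 against 163 to 197. PEP lay the other way, at 47.5 ± 16.7 against 106 ± 21.5. It did not pass as deposited (limma adjusted p = 0.056) and was lower with quantile normalization (0.023), while GSO1 passed in neither. In the pericycle and phloem list 1 of 3 was higher, with sums of 124 to 157 against 102 to 113. The part of these other cells in the kinesin differences was not tested. In sorted cell pools, fewer cells with a transcript and less of it per cell cannot be told apart. Each reporter has its own set of arrays, so array handling and cell type cannot be told apart either.

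More kinesins were lower than higher in WOX5 cells. Groups were compared with limma over all 22746 non-control probe sets, and a gene is called higher or lower when its Benjamini-Hochberg adjusted p was under 0.05. Of the 37 measured kinesins, 18 were lower in WOX5 cells (48.6%), 3 were higher (8.11%) and 16 did not pass. Over all probe sets 23.8% passed, 9.49% lower and 14.3% higher, and over all genes with a named probe set 9.43% were lower and 12.7% higher. With any 1 array left out, 12 to 15 of the kinesins were lower. In the same fits 726 to 2000 of all probe sets were lower, against 2159 with all arrays. The median log2 difference (WOX5 minus TMO5) was -0.77 over the measured kinesins and 0.03 over all probe sets. Among the 18 lower kinesins, 17 lay above background in both groups, and 12 of these were at least 2-fold lower. All WOX5 arrays lay below all TMO5 arrays in 22 of the 37 kinesins and above them in 4, against 22.4% and 24.4% of all probe sets. Because the family was put forward with results of these arrays known, these counts describe it and are not independent evidence.

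**Figure D1:**
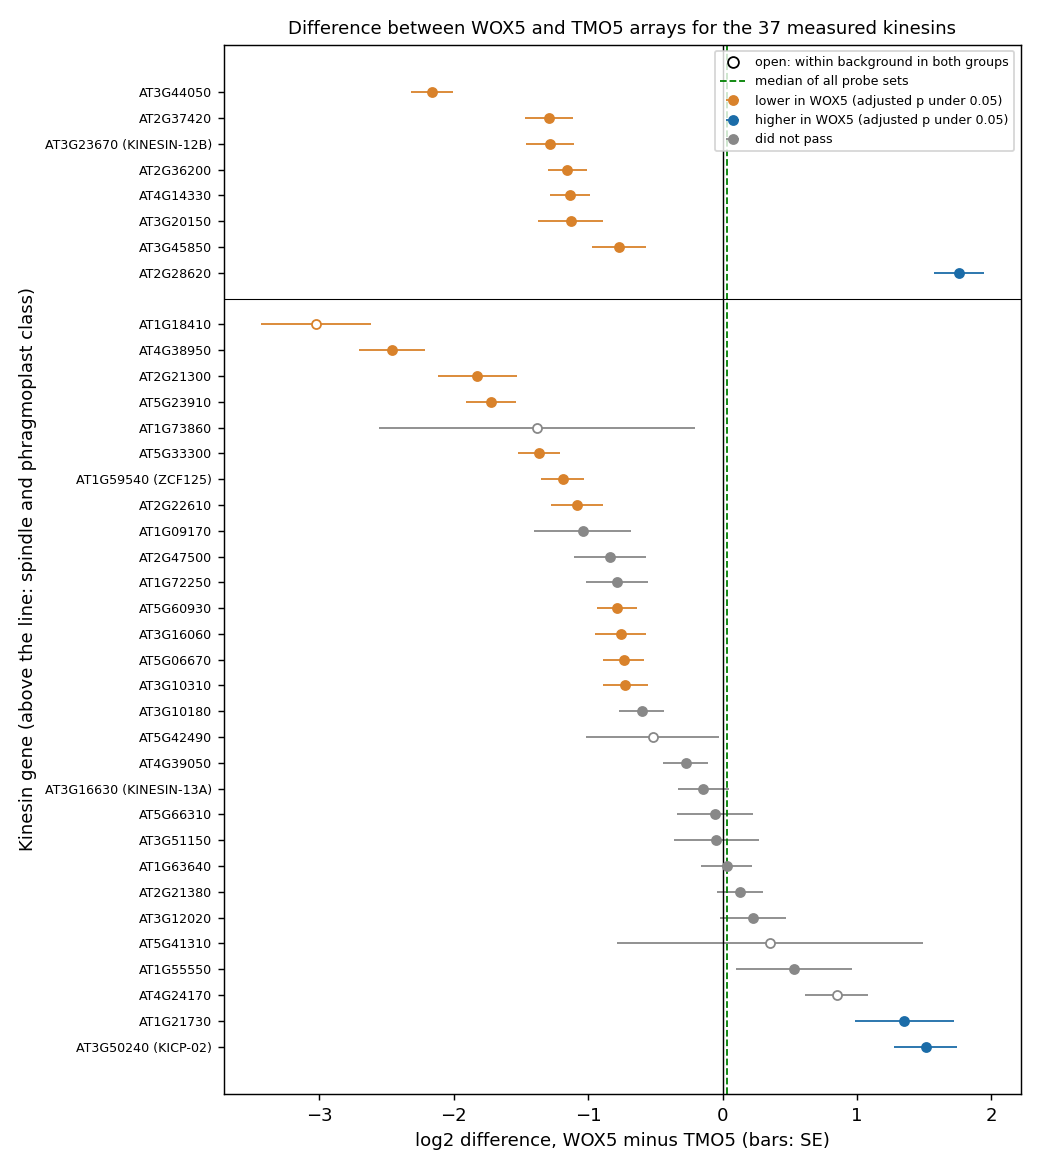
Log2 difference (WOX5 minus TMO5, horizontal axis, bars are SE) of each of the 37 measured kinesins, with the spindle and phragmoplast class above the line and the other kinesins below it. In the class 7 genes lie at -0.77 or lower and AT2G28620 lies at 1.76, while the others above background in both groups run from -2.46 to 1.51 and open points are genes within background in both.

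The kinesins with a known part in the spindle or phragmoplast were set apart from the rest by role, a sorting made from general knowledge of the subfamilies because the gene tables hold symbols and no descriptions. Of 17 such kinesins, 8 were measured, all above background in both groups. In WOX5 cells 7 of the 8 were lower (87.5%) and 1 was higher, against 11 lower (37.9%) and 2 higher among the 29 other kinesins measured. The class holds AT3G44050, which was lower, and AT2G28620, which was higher. Both values were known when the list was made, so the counts and median of the class are a description. Of the 23 others above background in both groups, 10 were lower (43.5%) and 2 higher. Over all genes with a named probe set, 9.43% were lower and 12.7% higher. When any 1 array other than WOX5 replicate 2 was left out, 6 or 7 of the 29 others were lower, and 5 or 6 of the class. In those fits 726 to 1255 of all probe sets were lower, against 2159 with all arrays. The median log2 difference was -1.15 in the class and -0.73 among the 29 others, and with values floored at the 20th percentile it was -1.15 and -0.32. Among the 23 others above background in both groups it was -0.73 as deposited. On WOX5 arrays the class had a median log2 intensity of 7.81, 7.67 and 7.87, and on TMO5 arrays of 8.56, 8.81 and 8.82. Every TMO5 array was thus above every WOX5 array. The same held for the median of the 29 others, at 6.91, 6.82 and 6.66 on WOX5 and at 7.23, 7.09 and 7.34 on TMO5 arrays. The median of all probe sets ran the other way, from 6.52 to 6.53 on WOX5 and from 6.09 to 6.22 on TMO5 arrays. The difference between the classes was not tested.

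Kinesin-12 motors sit in the phragmoplast, where they help to keep the microtubule plus ends at its midline, or mark the division site. All 3 measured kinesin-12 genes were lower in WOX5 cells. AT3G44050 stood at 218, 221 and 269 on WOX5 arrays and at 1009.7, 1104 and 1037 on TMO5 arrays. The groups were far apart, with a log2 difference of -2.16 ± 0.16 (SE) that went furthest in the class and is given as a description, since it was known when the family was chosen. KINESIN-12B (AT3G23670), also known as PAKRP1L and found at the phragmoplast midline, stood at 242, 189 and 221 on WOX5 and at 458, 551 and 577 on TMO5 arrays. Its fall was 2.44-fold, with a log2 difference of -1.28 ± 0.18 (limma adjusted p = 0.0068). AT3G20150 stood at 262, 184 and 175 on WOX5 and at 359.5, 509 and 484 on TMO5 arrays, with replicate 1 nearest to the other group on both sides. It was 2.19-fold lower (adjusted p = 0.025), and it did not pass without WOX5 replicate 2, WOX5 replicate 3, TMO5 replicate 2 or TMO5 replicate 3 (adjusted p up to 0.085).

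**Figure D2:**
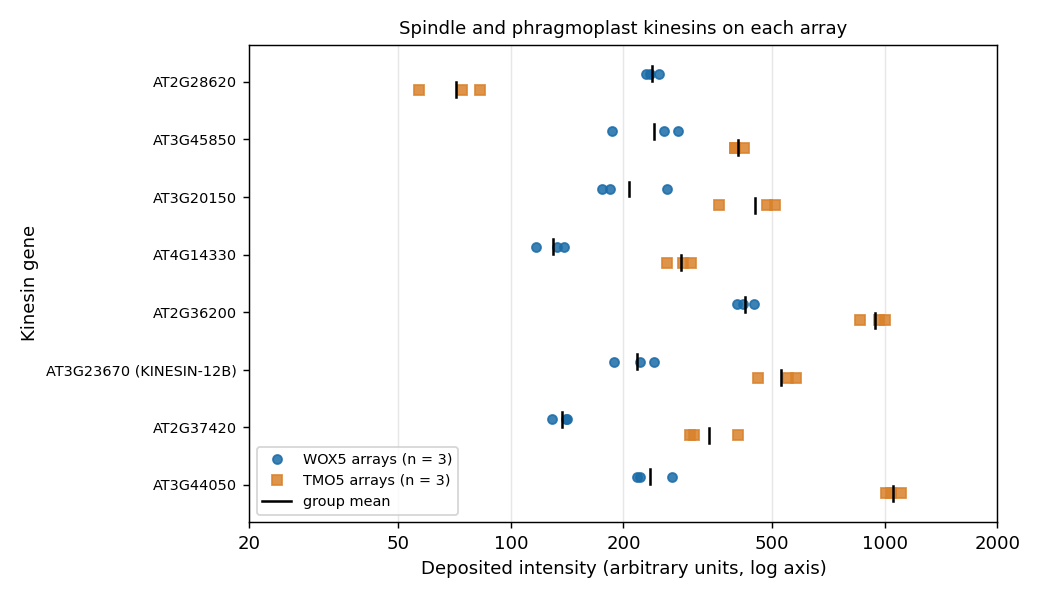
Deposited intensity (log axis) of the 8 measured spindle and phragmoplast kinesins on each WOX5 array (circles) and TMO5 array (squares), with black bars at the group means. The groups do not overlap for any of the 8 genes, and AT2G28620 alone has its WOX5 arrays, 230.4 to 248, above its TMO5 arrays, 56.8 to 82.7.

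Kinesin-5 motors are tetramers that crosslink antiparallel microtubules and push them apart in the spindle and phragmoplast. All 4 members of this subfamily on the list were measured, and they did not move alike. AT2G36200 stood at 446, 418 and 402 on WOX5 and at 858, 1001 and 967 on TMO5 arrays. It was 2.23-fold lower in WOX5 cells (log2 difference -1.16 ± 0.15, SE; limma adjusted p = 0.0053). AT2G37420 stood at 129, 142 and 141 on WOX5 and at 309, 301 and 405 on TMO5 arrays, a 2.45-fold fall (adjusted p = 0.0066). The WOX5 values lay close together, and TMO5 replicate 3 was the array farthest from them. AT3G45850 stood at 187, 256 and 280.3 on WOX5 and at 398, 398 and 421 on TMO5 arrays. The groups did not overlap, but its 1.71-fold fall was near the threshold (adjusted p = 0.042), and it did not pass without any 1 of the 6 arrays (adjusted p up to 0.12).

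AT2G28620 went the other way from the other kinesin-5 genes. It stood at 230.4, 236 and 248 on WOX5 arrays and at 82.7, 74.2 and 56.8 on TMO5 arrays. Every WOX5 array was above every TMO5 array, and all were above background. Its level in WOX5 cells was 3.38-fold that in TMO5 cells, a log2 difference of 1.76 ± 0.19 (SE) that was likewise known beforehand and is given as a description. The value was 1.44 under quantile normalization, 1.38 with median-centred arrays, and 1.60 to 1.87 without any 1 array.

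The eighth measured gene of the class was AT4G14330, a kinesin-10 of the phragmoplast. It stood at 133, 117 and 139 on WOX5 and at 262, 304 and 288 on TMO5 arrays. The groups were well apart, and it was 2.20-fold lower in WOX5 cells, with a log2 difference of -1.14 ± 0.15 (SE, limma adjusted p = 0.0062). The other 9 kinesins of the class had no single-gene probe set in the annotation used and were not analysed here. They are HIK and TES, the NACK kinesins that switch on the MAP kinase cascade of cytokinesis, POK1 and POK2, which guide the phragmoplast to the division site, PAKRP1, a partner of KINESIN-12B, and the minus-end motors ATK1, ATK2, ATK3 and ATK5.

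For 4 further kinesins the part in division is less settled, and they were counted with the others. ZCF125 (AT1G59540), a kinesin-7, stood at 166, 183 and 158 on WOX5 and at 350.4, 371 and 438 on TMO5 arrays. The 2.28-fold fall (limma adjusted p = 0.0063) separated all arrays of the groups. AT5G60930, a kinesin-4, stood at 322, 323 and 342 on WOX5 and at 543, 638 and 522 on TMO5 arrays, a 1.72-fold fall (adjusted p = 0.018). It did not pass without WOX5 replicate 1, WOX5 replicate 3, TMO5 replicate 1 or TMO5 replicate 2 (adjusted p up to 0.070). AT3G10180, a kinesin-7, stood at 102, 103 and 105 on WOX5 and at 157, 183 and 135 on TMO5 arrays, and its log2 difference of -0.60 ± 0.17 (SE) just missed the threshold (adjusted p = 0.051). ZWI, a calmodulin-binding kinesin of dividing cells and trichomes, was not analysed here. With these genes moved into the class, 9 of 11 measured were lower and 1 higher, against 9 lower and 2 higher of the remaining 26.

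Outside the class, the falls with the greatest size above background were in kinesin-7 genes, a subfamily that in plants holds cytokinesis motors and many genes of less known function. Of 13 kinesin-7 genes measured, 4 were lower, 1 was higher and 8 did not pass, with a median log2 difference of -0.27. AT4G38950 stood at 135, 95.8 and 84.5 on WOX5 and at 490.0, 535 and 693 on TMO5 arrays. Its fall was 5.50-fold, with a log2 difference of -2.46 ± 0.25 (SE, limma adjusted p = 0.0029), beyond that of AT3G44050 in the class. AT2G21300 stood at 161, 165 and 99.8 on WOX5 and at 376, 502 and 623 on TMO5 arrays, a 3.54-fold fall (adjusted p = 0.011). For both genes the lowest TMO5 array was above every WOX5 array, by a wide margin. AT5G06670 was 1.67-fold lower, at 70.9 ± 1.83 (SD, n = 3) against 119 ± 14.7 (adjusted p = 0.024), and it did not pass when any 1 array other than WOX5 replicate 2 was left out (adjusted p up to 0.084).

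AT5G23910, put with the kinesin-10 genes by hand with less certainty, stood at 95.6, 111 and 104 on WOX5 and at 278, 372 and 384 on TMO5 arrays. It was 3.30-fold lower (limma adjusted p = 0.0035) in WOX5 cells, whose values were tightly grouped. AT5G33300, put with the kinesin-4 genes with the same reserve, stood at 282, 229 and 279 on WOX5 and at 679, 689 and 660.1 on TMO5 arrays. It was 2.58-fold lower (adjusted p = 0.0039), and here the TMO5 values were the tighter group.

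**Figure D3:**
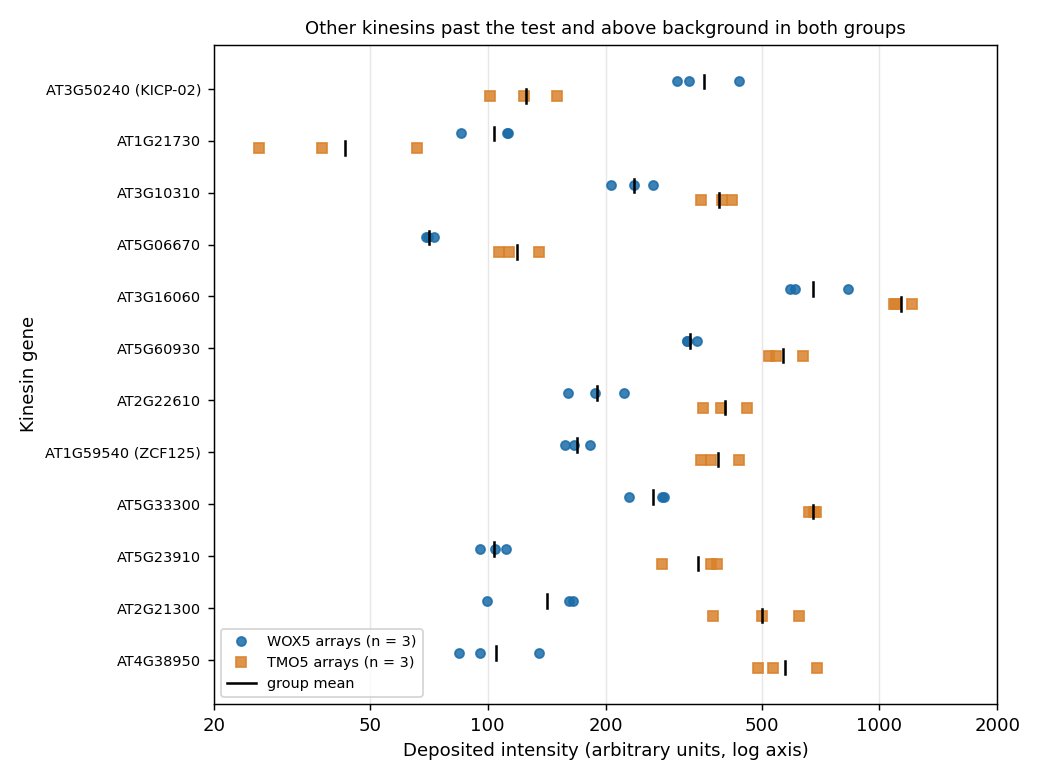
Deposited intensity (log axis) on each WOX5 array (circles) and TMO5 array (squares) of the 12 kinesins outside the spindle and phragmoplast class that passed the test and lay above background in both groups, with black bars at the group means. The groups do not overlap for these genes, and KICP-02 and AT1G21730 have their WOX5 arrays on the right.

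Kinesin-14 motors walk to the minus end, and outside the class they include motors of chloroplast and mitochondrial positioning. Of 10 measured, 3 were lower in WOX5 cells and 7 did not pass. AT2G22610 was 2.12-fold lower, at 190.4 ± 31.1 (SD, n = 3) in WOX5 against 403 ± 52.6 in TMO5 cells (limma adjusted p = 0.015), and did not pass without WOX5 replicate 1, TMO5 replicate 1 or TMO5 replicate 3 (adjusted p up to 0.053). AT3G10310 was 1.65-fold lower, at 236 ± 29.0 against 389 ± 35.6 (adjusted p = 0.032), and did not pass without any 1 array (adjusted p up to 0.10). AT1G18410 passed as lower as well (adjusted p = 0.0065), but its values of 1.11 to 2.65 on WOX5 and 10.6 to 19.8 on TMO5 arrays lay within background in both groups, so no fold is given, and it did not pass with values floored at the 20th percentile (adjusted p = 0.58). AT1G72250 and AT2G47500 had groups that did not overlap, with log2 differences of -0.79 ± 0.23 and -0.84 ± 0.27 (SE), and missed the threshold (adjusted p = 0.059 and 0.076). AT1G63640 had a log2 difference of 0.03 with a 95% interval from -0.44 to 0.50. AT1G09170 stood at 17.2, 28.8 and 14.5 on WOX5 arrays, within background there, and at 54.7, 39.9 and 28.7 on TMO5 arrays (adjusted p = 0.091). AT1G55550 differed by 0.53 ± 0.43. AT1G73860 and AT5G41310 lay within background in both groups.

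Kinesin-13 motors do not walk but remove subunits from microtubule ends, and KINESIN-13A is known from trichomes and from the pitted walls of xylem vessels. KINESIN-13A (AT3G16630) stood at 874, 691 and 816 on WOX5 and at 741, 895 and 998 on TMO5 arrays. The groups overlapped, and the log2 difference of -0.14 had a 95% interval from -0.61 to 0.32 (limma adjusted p = 0.62). Its relative AT3G16060 stood at 592, 833 and 609 on WOX5 and at 1087, 1101 and 1211 on TMO5 arrays. It was 1.69-fold lower in WOX5 cells (adjusted p = 0.039) with no overlap. It did not pass with quantile normalization (adjusted p = 0.059), nor when any 1 array other than WOX5 replicate 2 was left out (adjusted p up to 0.11). The difference between these 2 relatives was not tested.

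Besides AT2G28620, 2 kinesins were higher in WOX5 cells. KICP-02 (AT3G50240), a kinesin-4, stood at 326, 439 and 304 on WOX5 and at 150.1, 101 and 124 on TMO5 arrays. All WOX5 arrays were well above all TMO5 arrays, and the rise was 2.85-fold, with a log2 difference of 1.51 ± 0.23 (SE, limma adjusted p = 0.0094). AT1G21730, a kinesin-7, stood at 112, 113 and 85.6 on WOX5 and at 66.0, 37.8 and 26.1 on TMO5 arrays. Its 2.55-fold rise passed narrowly (adjusted p = 0.049). It did not pass with quantile normalization (0.092), with centred arrays (0.076), with array weights (0.0501) or with a floor at the 20th percentile (0.057). Nor did AT1G21730 pass with the replicate number added to the model as a block (0.068), or when any 1 array other than TMO5 replicate 1 was left out (up to 0.13).

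The remaining kinesin-7 genes did not pass. AT4G39050 stood at 488, 487 and 399 on WOX5 and at 522, 515 and 625 on TMO5 arrays, a log2 difference of -0.27 ± 0.17 (SE) between groups that did not overlap (limma adjusted p = 0.29). AT2G21380 stood at 151, 161 and 139 on WOX5 and at 122, 131 and 162 on TMO5 arrays, with overlapping groups. AT3G12020, AT5G66310 and AT3G51150 had log2 differences of 0.23 ± 0.25, -0.06 ± 0.28 and -0.05 ± 0.31. AT4G24170 and AT5G42490 lay within background in both groups, so no difference is given for them. Of the 16 kinesins that did not pass, 11 lay above background in both groups, with log2 differences from -0.84 to 0.53, of which 7 were below 0.

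A further 10 kinesins outside the class had no single-gene probe set in the annotation used and were not analysed here. They include FRA1, a kinesin-4 needed for ordered cellulose in the wall, KAC1 and KAC2 of chloroplast movement, KP1, ATK4, ZWI, the armadillo repeat kinesins MRH2 (ARK1, known from root hairs), ARK2 and ARK3, and AT1G20060.

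Because the arrays' medians differ, the members were also compared under other scalings. The share of all calls that were higher in WOX5 cells was 60.1% as deposited, 47.2% after quantile normalization (23.9% of probe sets passing) and 29.7% with median-centred arrays. The corresponding medians over all probe sets were 0.03, -0.14 and -0.35 on the log2 scale. Among the kinesins, 18 were lower and 3 higher as deposited, 20 lower and 2 higher with quantile normalization, and 23 lower and 2 higher with centred arrays, beside 12.6% and 23.3% of all probe sets lower, and 11.3% and 9.85% higher, under the latter 2. The class kept 7 lower and 1 higher under all 3 scalings. The median log2 difference of the class was -1.15, -1.37 and -1.52, further below 0 than the median of all probe sets each time. Another fit was restricted to the 15860 probe sets that lay above background on all arrays of either group. Of these 46.2% passed, 21.0% as lower and 25.2% as higher. Of the 32 kinesins in that fit 21 were lower and 3 higher. The lower ones include AT1G09170, which entered the fit through its TMO5 arrays alone, so these counts are a description.

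**Figure D4:**
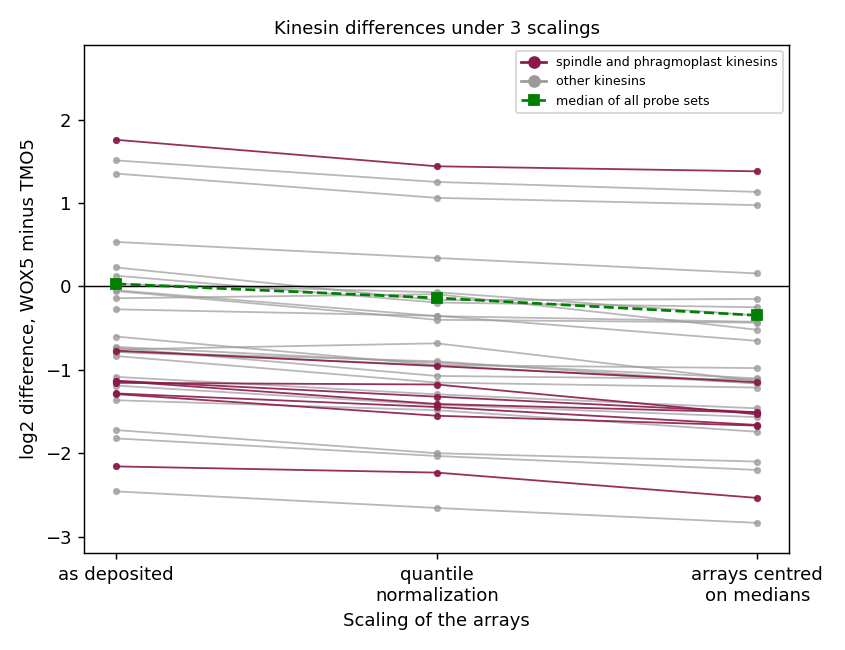
Log2 difference (WOX5 minus TMO5) of the 31 kinesins above background in both groups under 3 scalings of the arrays, 1 line per gene, with the median of all probe sets dashed. The class lines (dark) keep their sides of 0, with AT2G28620 between 1.76 and 1.38 and AT3G44050 between -2.16 and -2.54.

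Partners of the kinesins in mitosis and in the microtubule array were taken from 4 lists, in which few genes had a named probe set. Of 33 mitotic cyclins, kinases and checkpoint genes, 5 were measured, namely 3 Aurora kinases and 2 checkpoint genes. No cyclin or cyclin-dependent kinase was among them. All 5 were lower in WOX5 cells, beside 9.43% of all genes with a named probe set. BUBR1, a spindle checkpoint protein, was lower by 1.83 on the log2 scale, at 145 ± 28.4 (SD, n = 3) against 511 ± 54.2, and AUR3, an Aurora kinase of chromosomes, stood at 217 ± 28.2 against 607 ± 58.5 (limma adjusted p = 0.0039 and 0.0044). The Aurora kinases AUR1 and AUR2 and the checkpoint gene BUB3.1 had log2 differences of -1.40 ± 0.18, -1.02 ± 0.18 and -0.84 ± 0.15 (SE). All 3 passed, though with 1 array left out BUB3.1 passed in 2 of the 6 fits and AUR2 in 4.

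Of 25 genes of the NACK cascade and of cytokinesis, 6 were measured and 2 were lower in WOX5 cells, namely TIO, the kinase of phragmoplast expansion listed as FU in the gene table (log2 difference -0.76 ± 0.19, SE), and TPLATE, an adaptor of endocytosis at the cell plate (-0.56 ± 0.14), both with a limma adjusted p of 0.041. Over all genes with a named probe set 9.43% were lower. TIO passed in 1 of the 6 fits with 1 array left out, and TPLATE did not pass in any of them. KEU, which acts in vesicle fusion at the cell plate, differed by -0.03 ± 0.19 on the log2 scale, and neither it nor the remaining 3 passed. Of 37 other microtubule-associated proteins 2 were measured and 1 was lower, beside the same 9.43%. AT5G17410, listed as a gamma-tubulin complex subunit, had a log2 difference of -0.83 ± 0.15 (adjusted p = 0.015) and passed in 2 of the 6 fits with 1 array left out. SPR1, a plus-end protein of growing cells, differed by 0.47 ± 0.15, which did not pass as deposited and passed as higher with quantile normalization (adjusted p = 0.039).

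Tubulins form the track itself. Of 17 genes 7 were measured, and TUB6 was lower in WOX5 cells, at 627 ± 52.9 (SD, n = 3) against 924 ± 41.2 (limma adjusted p = 0.043), a call that was lost without any 1 array and with quantile normalization (adjusted p = 0.053). The other 6 did not pass, with log2 differences from -1.07 to -0.28, and the list's median was -0.53. Over all genes with a named probe set 9.43% were lower. With median-centred arrays 6 of the 7 were lower, at a median of -0.90, beside 23.3% of all probe sets and their median of -0.35. With quantile normalization 1 of 7 was lower, TUA1, beside 12.6% of all probe sets, and TUA6 changed sign.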

How the data were processed

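RNA of sorted protoplasts was biotin-labelled for Affymetrix arrays, per the labels' protocols. The intensity values of 22810 probe sets on 6 arrays, on a linear scale, are as the authors deposited them. Their software and settings were not given in the sources used here, nor which arrays had a second labelling cycle. Arrays have no read depth, and their number limits the precision.

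Values under 1 (1036 in all) were raised to 1, log2 was taken, and 64 control probe sets were set aside. WOX5 and TMO5 arrays were compared by limma 3.58.1 under R 4.3.3 (statmod 1.5.0), without a filter or further normalization. The script was tested on simulated data. Background was the 95th percentile of 27 unspiked bacterial controls, 30.8 in WOX5 and 23.4 in TMO5.

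Probe sets were named from the platform annotation through the TAIR10.1 gene table: 13513 had 1 gene, 503 several and 8730 none. No coordinates are printed, since the genome build of the probes was not stated. Planned descriptions of promoter motifs and of motor position were not run, because no sequences were used here.

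Members, classes and lists were chosen with earlier results of these data known. Genes named are every measured kinesin, and list genes by size among those that passed, and any other after its values were seen. Alternatives were 2 other scalings, a floor, a filter on dim probe sets, another variance model, array weights, a replicate block, leaving out each array, averaging probe sets and a wider class.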

Additional observations from a re-analysis of the deposited data

How the results depend on the processing

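Of the 21 kinesins that passed, 7 kept their call under every alternative run, namely AT2G28620, AT2G36200, AT2G37420, AT3G44050, AT4G38950, AT5G23910 and AT5G33300, and none of the 21 changed direction. The class counted 7 lower and 1 higher under each scaling, floor, filter, variance model and weighting, and 5 to 6 lower and 1 higher when 1 array was left out. Among the other kinesins, 6 to 10 were lower and 1 to 2 higher when 1 array was left out, and 1 was higher with quantile normalization, centred arrays, the floor or array weights. With a replicate block the class had 3 lower and 1 higher by limma, and the others 5 lower and 0 higher. Beside this, 551 of all 22746 probe sets were lower and 1719 higher, against 2159 and 3252 without the block. At an unadjusted p under 0.05, 3 of the others were higher with the block and 3 without. The share of all probe sets at that limit was not computed. KICP-02, AT2G21300, KINESIN-12B, ZCF125 and AT4G14330 lost their call under the block alone (limma adjusted p up to 0.061). Same-numbered arrays of the groups deviated from their group means with correlations of -0.05, 0.02 and 0.02, so no shared deviation by number was seen. With 3 arrays per group these values cannot tell whether same-numbered samples were collected together. Under the block all calls fell from 5411 to 2270. Among all probe sets, calls numbered 7538 with centred arrays (5297 lower) and 2827 to 4854 when 1 array was left out (726 to 2000 lower).

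The class median was -1.37 with quantile normalization and -1.52 with centred arrays. The median of the others was -0.90 and -1.10, and -0.32 with a floor at the 20th percentile, which sets dim values of both groups equal. Values near 0 changed sign without passing in any case, as did that of AT5G41310 (0.35 ± 1.14, SE), which lay within background in both groups. With quantile normalization and centred arrays these were AT2G21380 (-0.19 and -0.25), AT1G63640 (-0.070 and -0.35) and AT3G12020 (-0.17 and -0.15). With array weights they were AT1G63640 (-0.070), AT5G41310 (-0.29) and AT5G66310 (0.11), and AT5G41310 was at -0.023 with centred arrays. When 1 array was left out, AT3G51150 ran from -0.30 to 0.15, AT1G63640 from -0.11 to 0.14, AT5G41310 from -0.54 to 1.32 and AT5G66310 from -0.21 to 0.17. The causes were not tested. Of the kinesins that did not pass, 5 were called lower under at least 1 of the alternatives other than leaving out an array. Signal over background limits what can be said of the 5 kinesins within background in both groups.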

Other observations

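Some kinesin genes lie close together on a chromosome in the TAIR10.1 gene table. AT2G21300 and AT2G21380 are separated by 5 protein-coding genes on chromosome 2, and AT4G38950 and AT4G39050 by 9 on chromosome 4. In each pair the first gene was lower in WOX5 cells, with log2 differences of -1.82 ± 0.30 for AT2G21300 and -2.46 ± 0.25 for AT4G38950 (SE). The second genes did not pass, at 0.13 ± 0.17 for AT2G21380 and -0.27 ± 0.17 for AT4G39050. On chromosome 3, AT3G10180 and AT3G10310 are separated by 13 genes and differed by -0.60 ± 0.17 and -0.73 ± 0.17, of which the latter passed. The differences within pairs were not tested.

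AT3G10180 was the 1 kinesin with a second single-gene probe set. That probe set stood at 14.8, 13.1 and 1.06 on WOX5 and at 29.4, 11.8 and 34.0 on TMO5 arrays, within or near background, and did not pass (limma adjusted p = 0.26).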
